A study of Mus musculus with 4 samples.

Results

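The LIF pathway was followed through 10 genes, chosen by name, of the 24421 genes in the count files of the Illumina TruSeq libraries. They are the cytokine gene Lif, the receptor chain genes Lifr and Il6st, the kinase genes Jak1 and Jak2, the transcription factor gene Stat3, and the target genes Socs3, Pim1, Pim3 and Gbx2. The cells were R1, an established line of mouse embryonic stem cells (ESCs), and the libraries comprised 2 replicates of Undiff and 2 of Day4. In the methods, Undiff is R1 cells kept in growth medium, for 4 days in the study's scheme, with leukaemia inhibitory factor (LIF), whereas the sample labels name embryoid bodies, which are aggregates of differentiating ESCs, as the tissue of all 4 libraries. Day4 is embryoid bodies grown for 4 days without LIF and then for 4 days with retinoic acid (RA), at 2 µM in the methods and 2 mM in the labels. No embryoid bodies without RA were analysed here, so that the loss of LIF, aggregation, time in culture and RA cannot be told apart. The replicates were grown and treated separately, and all came from 1 cell line.

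LIF is a secreted cytokine of the IL-6 family that holds mouse ESCs undifferentiated in culture. It joins the receptor chain encoded by Lifr to gp130, the signalling chain shared by the family and encoded by Il6st, and the JAK kinases bound to these chains then phosphorylate STAT3, which enters the nucleus and switches on target genes. Among these targets, Socs3 encodes an inhibitor that binds gp130 and the JAKs and closes a feedback loop, Pim1 and Pim3 encode serine/threonine kinases that favour cell survival, and Gbx2 encodes a homeobox factor that can maintain ESCs. RNA levels report on the parts of the pathway and not on its activity, since STAT3 is activated by phosphorylation, and the LIF added to the medium is not measured as Lif RNA.

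Dimers of STAT3 bind DNA at a palindrome with TTC on one side and GAA on the other. The letters TTCNNNGAA, which read the same on both strands, were searched in the RefSeq promoter windows of GRCm38.p6, from 250 bases before to 50 bases after each annotated start. All 10 genes had a window, 12 windows in all, and 1 of the 12, that of Socs3, held the letters. Of all 32851 windows, 8.30% held them. Spacings of 2 and 4 bases between TTC and GAA, searched after the expression values were known, gave 1 further window each, against 8.52% and 6.95% of all windows. The 3 matches are shown because they lie before genes that differed between the states, with the match in capitals and the strand of the gene read 5′ to 3′.
Socs3, 3 bases between TTC and GAA: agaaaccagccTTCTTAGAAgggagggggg
Gbx2, 4 bases between TTC and GAA: tcgccccgccTTCCCCTGAAtagcaaatag
Jak2, 2 bases between TTC and GAA: tcggggccgctTTCCCGAAgctgcaccgcg

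The Socs3 stretch lies at chr11:117969502-117969531 on the minus strand, with its match 154 bases before the RefSeq start and within an intron of Socs3 in the GENCODE annotation. The Gbx2 stretch is at chr1:89931268-89931297 on the minus strand, and the Jak2 stretch at chr19:29251610-29251639 on the plus strand. Their matches lie outside the annotated Gbx2 and Jak2 genes, 111 and 182 bases before the RefSeq start. Whether they lie within other annotated genes was not checked. The genes with a match did not move in 1 direction. Socs3 and Gbx2 were lower in Day4 and Jak2 was higher. A match describes the letters alone, and the absence of one says only that these letters are not in the window.

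Levels are given in CPM, the counts of a gene per 1000000 counts of its library, with the scaling factors of the TMM method. A gene was called a DEG where edgeR's quasi-likelihood test gave an adjusted p-value no higher than 0.05, the log2 fold change was 1 or more in either direction, and the normalized counts averaged 5 or more. Counts on genes ranged from 32099074 to 47730944 per library, so that a count of 3, taken as the floor of detection, stood for 0.0629 to 0.0935 CPM. All 10 genes were above this floor in all libraries. The labels of the states were checked with marker lists. The 10 ESC markers were all lower in Day4, with a summed level of 5028 to 5061 CPM in Undiff and 18.5 to 24.2 CPM in Day4. Of 10 RA response genes 9 were higher in Day4, from 17.5 to 18.2 CPM up to 1324 to 1341 CPM, and Stra8 was not a DEG.

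**Figure D1:**
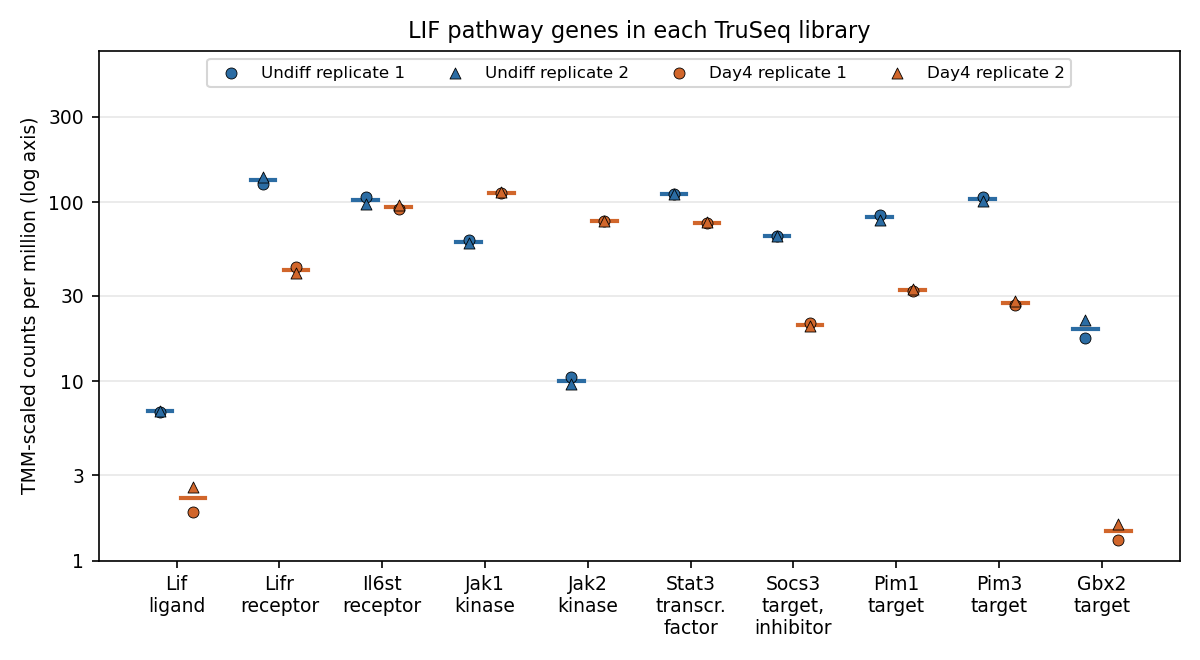
Level of each of the 10 LIF pathway genes in each library, in TMM-scaled CPM on a log axis, with circles and triangles for replicates 1 and 2, blue for Undiff, orange for Day4 and a bar at the mean of each state. Jak2 climbs from about 10.1 to 78.3 CPM while Gbx2 drops from 19.7 to 1.46 CPM, and Il6st stays close to 100 CPM in all 4 libraries.

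Of the 10 genes, 7 were DEGs. Lif, Lifr, Socs3, Pim1, Pim3 and Gbx2 were lower in Day4, and Jak2 was higher. Il6st, Jak1 and Stat3 did not pass the thresholds. Over all 19891 genes tested, 42.8% were DEGs, 22.2% higher and 20.6% lower in Day4, so that DEGs were common in this comparison. Among the 16472 genes whose normalized counts averaged 5 or more, as they did for all 10 genes, 51.7% were DEGs. With no minimum fold change the share was 71.9% of all genes tested, and 9 of the 10 genes passed, all but Il6st. For each of the 10 genes the Undiff and Day4 values did not overlap, which was also the case for 85.4% of all genes tested. The median log2 fold change of the 10 genes was -1.47, and that of the 16472 genes was 0.03.

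Lif, the gene of the cytokine itself (chr11:4257557-4272514, plus strand, GRCm38), was expressed at a low level in Undiff and lower still in Day4. Its values were 6.76 and 6.87 CPM in the Undiff libraries and 1.87 and 2.58 CPM in the Day4 libraries. These stand on 243 and 215 counts in Undiff and 67 and 126 counts in Day4, and the lowest Undiff value was above the highest Day4 value. The log2 fold change was -1.58 ± 0.15 (SE, n = 2 per state; edgeR, Benjamini-Hochberg adjusted p = 3.6e-07). The Day4 replicates differed more from each other than the Undiff replicates did, and the log2 fold change lay between -1.89 and -1.40 when 1 library was left out.

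Lifr, which encodes the chain that binds LIF (chr15:7090614-7197489, plus strand), showed 126 and 139 CPM in Undiff against 43.7 and 40.5 CPM in Day4. This was a 3.15-fold lower level in Day4 (log2 fold change -1.66 ± 0.06, edgeR adjusted p = 1.6e-11). Its partner Il6st (chr13:112464070-112510086, plus strand) showed 107 and 97.5 CPM in Undiff and 91.6 and 96.4 CPM in Day4. The Il6st values of the states came within about 1 CPM of each other. The log2 fold change of Il6st was -0.12 ± 0.05 (edgeR adjusted p = 0.055), and over 13 alternative settings it stayed between -0.19 and -0.05 with adjusted p-values from 0.0016 to 0.375, at most 0.05 in 7 of the 13.

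To set the 2 chains side by side, levels were divided by the length of the exons of each gene. Per kb, Lifr RNA stood at 1.21 and 1.47 times the level of Il6st RNA in the Undiff libraries and at 0.491 and 0.433 times in the Day4 libraries. The order of the chains was therefore opposite in the 2 states. This ratio depends on the annotated exon lengths, but its change between states does not.

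Jak2, one of the kinases bound to gp130 (chr19:29251828-29313080, plus strand), was the only one of the 10 genes called higher in Day4. It showed 10.5 and 9.65 CPM in Undiff and 78.4 and 78.2 CPM in Day4, with the replicates close together in both states. The difference was 7.76-fold, a log2 fold change of 2.95 ± 0.06 (edgeR adjusted p = 1.2e-13). Jak1, the kinase on which gp130 signalling mainly relies (chr4:101152367-101265282, minus strand), showed 61.7 and 58.8 CPM in Undiff and 112 and 115 CPM in Day4. Its log2 fold change of 0.91 ± 0.05 had an adjusted p of 8.6e-10 in edgeR but was just under the minimum for a DEG, and it stayed there under the 13 alternatives, between 0.86 and 0.98. Per kb of exon, Jak2 stood at 0.245 and 0.236 times the level of Jak1 in Undiff and at 1.01 and 0.980 times in Day4, so that the kinases were at about the same level in Day4. With the longest transcript as the length, the Day4 ratios were 0.684 and 0.665.

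Stat3, the transcription factor that carries the signal to the nucleus (chr11:100885098-100939540, minus strand), showed 112 and 111 CPM in Undiff and 76.5 and 77.2 CPM in Day4. The replicates of each state were within 1 CPM of each other, and the states were clearly apart. The log2 fold change of -0.54 ± 0.05 had an adjusted p of 1.1e-07 in edgeR and was below the fold required of a DEG. Exons of Stat3 and Stat5a, which lie on opposite strands, overlap by 72 bases of the 9527 exon bases of Stat3, and those of Jak1 and Raver2 by 4 bases.

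**Figure D2:**
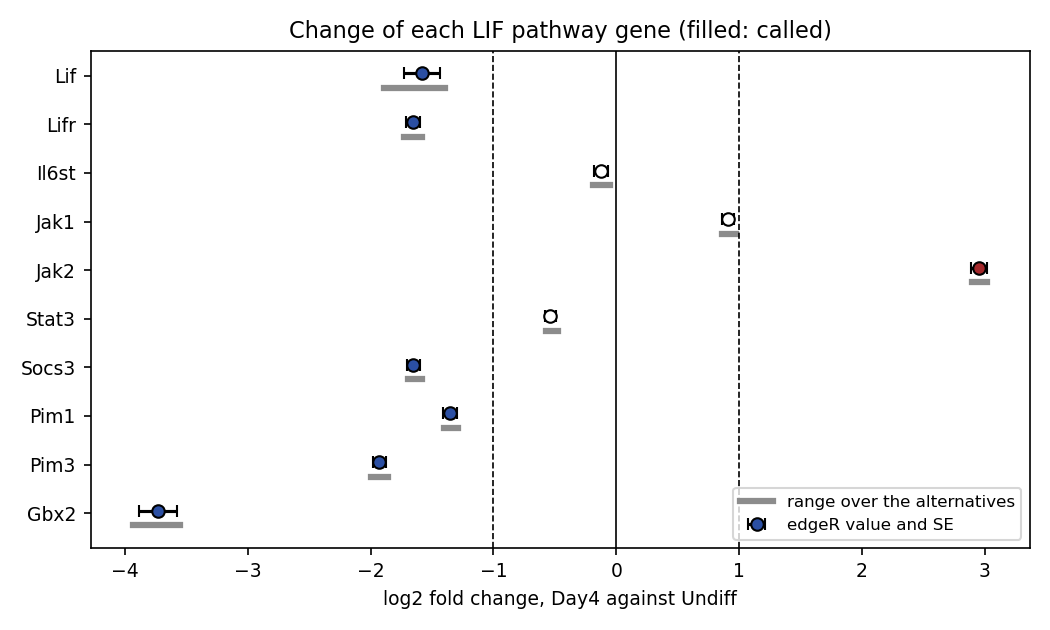
The log2 fold change of each of the 10 genes, Day4 against Undiff, from edgeR, with its SE as error bar, filled points for DEGs, dashed lines at a log2 fold change of 1 in either direction and a grey bar for the range over the 13 alternative settings. No grey bar crosses 0, and Lif and Gbx2, the 2 genes with the fewest counts, have the widest SE.

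The target genes were all lower in Day4. Socs3, the feedback inhibitor of the promoter match shown above (chr11:117966079-117970047, minus strand), showed 64.7 and 65.1 CPM in Undiff and 21.1 and 20.3 CPM in Day4, a log2 fold change of -1.65 ± 0.06 (edgeR adjusted p = 8.3e-12). Pim1 (chr17:29490753-29496112, plus strand) showed 85.3 and 79.7 CPM in Undiff and 31.9 and 32.8 CPM in Day4, a log2 fold change of -1.35 ± 0.06 (edgeR adjusted p = 5.4e-11). Pim3 (chr15:88862186-88865726, plus strand) showed 107 and 102 CPM in Undiff and 26.8 and 28.1 CPM in Day4, a log2 fold change of -1.93 ± 0.05 (edgeR adjusted p = 1.3e-12). For all 3 the states lay well apart, and the replicates differed by far less than the states. Per kb, Socs3 stood at 1.91 and 1.93 times the level of Stat3 in Undiff and at 0.907 and 0.868 times in Day4. Pim3 stood at 1.74 and 1.77 times the level of Pim1 in Undiff and at 1.17 and 1.19 times in Day4. The order of Pim3 and Pim1 in Day4 depended on the length used, as the ratios were 0.935 and 0.953 with the longest transcript.

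Gbx2 had the largest fold change of the 10 genes. It showed 17.4 and 22.1 CPM in Undiff, from 625 and 691 counts, and 1.31 and 1.60 CPM in Day4, from 47 and 78 counts. This was a 13.6-fold lower level in Day4 (log2 fold change -3.73 ± 0.16, edgeR adjusted p = 7.2e-11). Gbx2 lies at chr1:89927956-89931179 on the minus strand, and 946 of its 2177 exon bases overlap exons of D130058E05Rik on the other strand in the GENCODE annotation. The count files do not list that gene, and the methods name no strand option for counting TruSeq fragments on genes, while for exons the strand was not used. If it was not used for genes either, fragments of the 2 strands cannot be told apart. For Pim1 the same applies to 488 of 3362 exon bases, which overlap exons of Gm26885.

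Among the 10067 genes with a mean of at least 10 CPM with which each was compared, the patterns nearest to Jak2 over the 4 libraries, by distance between centred log2 CPM values, were those of Dennd1a, 9530068E07Rik and Erbb2ip, at distances of 0.04 to 0.07. Those nearest to Gbx2 were Fam129a, Mreg and Sh3gl2, at 0.14 to 0.17. At a looser distance of 0.5, 335 of the 10067 genes lay near Jak2 and 74 near Gbx2. With 4 libraries in 2 states, likeness of pattern is shared by many genes and says little about any 1 of them.

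The other genes of the pathway were taken from 6 lists with 76 genes in all. Of these, 16 were higher in Day4, 25 were lower and 35 were not DEGs, so that 53.9% were DEGs, beside 42.8% of all genes tested. Of the 74 listed genes whose normalized counts averaged 5 or more 55.4% were DEGs, beside 51.7% of all genes at that level. The lists differed in their direction.

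**Figure D3:**
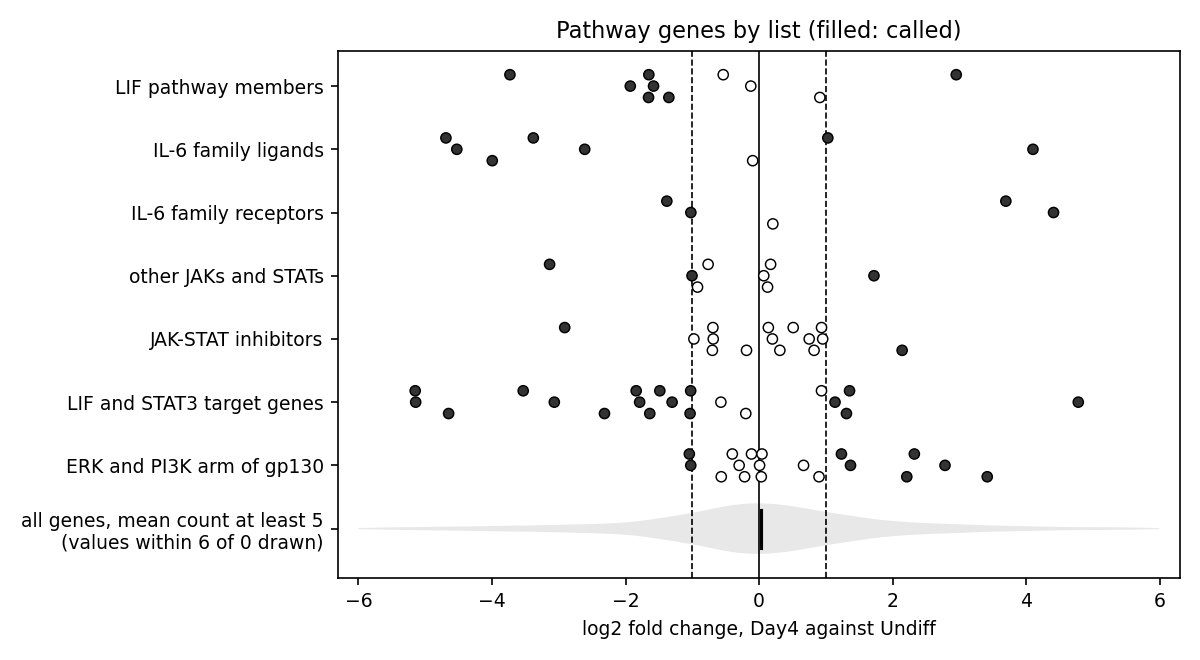
The log2 fold change, Day4 against Undiff, of the 10 LIF pathway genes and of the genes of 6 further lists whose normalized counts averaged 5 or more, each point a gene and filled where it was a DEG, with dashed lines at a log2 fold change of 1 in either direction. The grey shape is the distribution of all genes with such a count and its black bar the median of 0.03, and the LIF and STAT3 target genes lie mostly to the left, with a median of -1.39.

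Of the other ligands of the IL-6 family and their partners, 2 of 10 were higher in Day4 and 5 were lower. The median log2 fold change of this list was -2.97. Of its genes, 4 had a state at the floor. The median was -1.35 with Il6 and Il27, at the floor in both states, set to 0, and Il11 and Osm set to their bound. Clcf1, a cytokine that signals through the CNTF receptor, rose from 0.807 and 0.575 CPM in Undiff to 12.3 and 11.9 CPM in Day4, a log2 fold change of 4.10 ± 0.16 (edgeR adjusted p = 3.1e-11). Ctf1, the gene of cardiotrophin, was higher in Day4 by a log2 fold change of 1.03 ± 0.12, and this call was lost under 6 of the 13 alternatives, among them the fits without Undiff replicate 2 (0.99) or Day4 replicate 2 (0.9991). Osm, the gene of oncostatin M, had 37 and 30 counts in Undiff and 1 and 2 counts in Day4. Il11, another cytokine of the family, had 28 and 26 counts in Undiff and 2 in each Day4 library, and Ebi3, a subunit of IL-27, had 28 and 32 against 4 and 3. Ctf2 had 26 and 14 counts in Undiff and 7 and 1 in Day4. Cntf, Il6 and Il27 had at most 12 counts in any library and were not DEGs.

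Of the 5 other receptor chains, 2 were higher in Day4 and 2 were lower. Cntfr, the chain that binds CNTF and signals together with Lifr and gp130, rose from 6.15 and 6.20 CPM in Undiff to 140 and 123 CPM in Day4, a log2 fold change of 4.41 ± 0.08 (edgeR adjusted p = 3.8e-14). Il11ra1, the chain that binds IL-11, rose from 5.12 and 5.24 CPM to 70.6 and 63.9 CPM, a log2 fold change of 3.70 ± 0.08 (edgeR adjusted p = 1.5e-13). Il27ra was lower by a log2 fold change of -1.38 ± 0.15 and Il6ra by -1.02 ± 0.24, the latter close to the threshold and not called under 5 of the 13 alternatives, among them the fits without Undiff replicate 2 (-0.85) or Day4 replicate 2 (-0.81). Osmr, the chain for oncostatin M, had 10 to 28 counts per library and was not a DEG.

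Per kb of exon, Lifr made up 44.3% and 48.3% of the RNA of the 7 receptor chains in the Undiff libraries and 5.12% and 5.25% in the Day4 libraries. The share of Il6st was 36.7% and 32.9% in Undiff and 10.4% and 12.1% in Day4, although its own level hardly differed. Cntfr made up 8.40% and 8.35% in Undiff and 63.6% and 61.7% in Day4, so that it stood at 0.229 and 0.254 times the level of Il6st in Undiff and at 6.11 and 5.08 times in Day4. Il11ra1 stood at 0.118 and 0.133 times the level of Il6st in Undiff and at 1.91 and 1.65 times in Day4. The most abundant chain per kb was thus Lifr in Undiff and Cntfr in Day4.

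**Figure D4:**
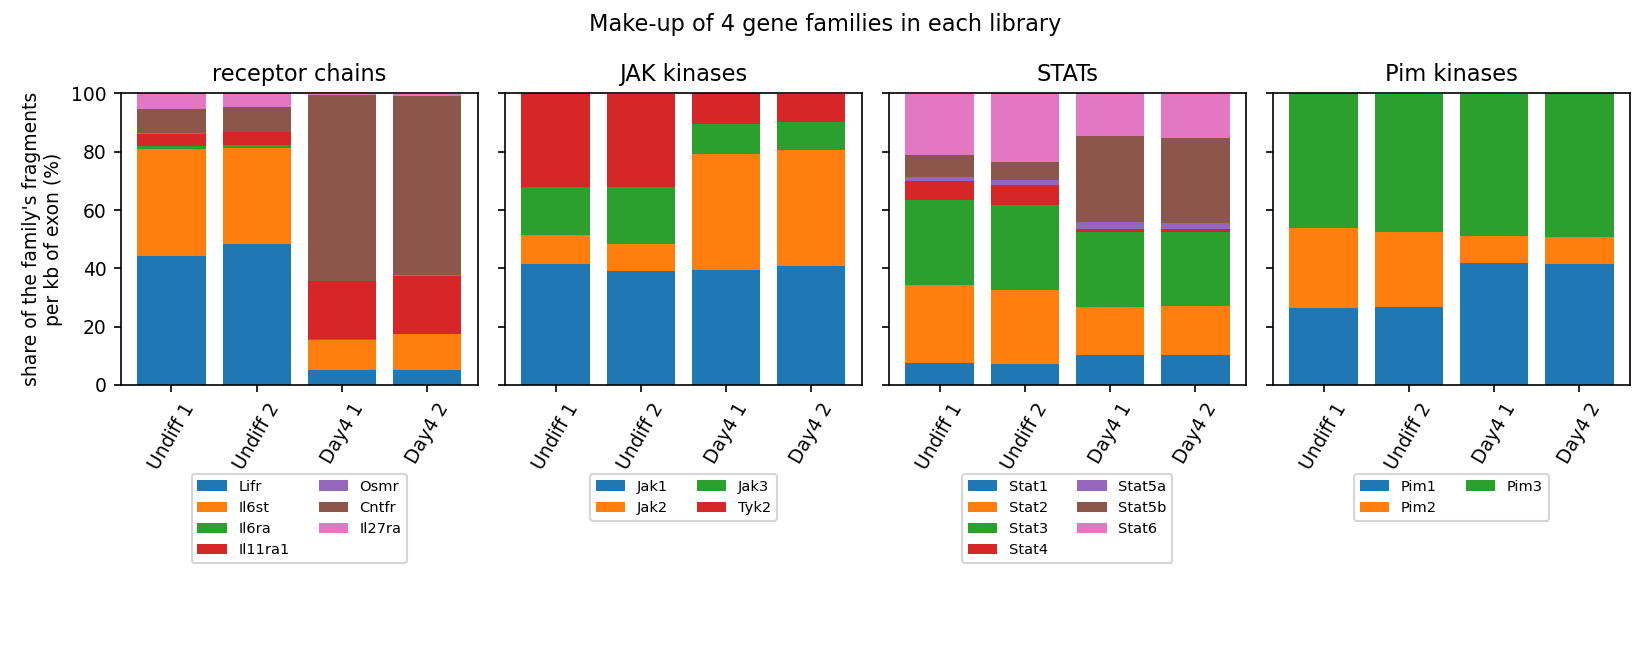
Share of each gene in the summed fragments per kb of exon of its family, in percent, in each of the 4 libraries, for receptor chains, JAK kinases, STATs and Pim kinases. Lifr (blue, bottom left) shrinks from 44.3% and 48.3% to 5.12% and 5.25% of the receptor chains while Cntfr (brown) grows, and Jak2 (orange) grows from 10.1% and 9.21% to 39.8% of the JAK kinases.

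Among the 8 other JAK and STAT genes, Stat5b was higher in Day4, Stat4 and Stat2 were lower, and 5 were not DEGs. Stat5b, which responds to growth hormone and many cytokines, rose from 16.5 and 14.5 CPM to 51.1 CPM in both Day4 libraries, a log2 fold change of 1.72 ± 0.07 (edgeR adjusted p = 3.8e-11). Stat4, known from interleukin 12 signalling, fell from 10.3 and 10.8 CPM to 1.37 and 1.07 CPM, a log2 fold change of -3.14 ± 0.14 (edgeR adjusted p = 1.6e-10). Stat2, which acts in the interferon response, was 2.01-fold lower in Day4, close to the threshold, and was not called under 4 of the 13 alternatives, among them the fits without Undiff replicate 1 (log2 fold change -0.97) or Day4 replicate 1 (-0.98). Within the STATs, the share of Stat3 per kb was 29.2% and 29.0% in Undiff and 25.8% and 25.5% in Day4. That of Stat5b went from 7.38% and 6.50% in Undiff to 29.6% and 29.1% in Day4. The order of Stat3 and Stat5b in Day4 depended on the length used. With the longest transcript, the mean shares in Day4 were 30.9% for Stat3 and 23.8% for Stat5b. Within the JAKs, the share of Jak1 was 41.4% and 39.1% in Undiff and 39.5% and 40.7% in Day4. Tyk2 made up 32.0% and 32.1% in Undiff and 10.4% and 9.70% in Day4, and it was not a DEG.

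Of 15 genes of JAK-STAT inhibitors other than Socs3, 1 was higher in Day4, 1 was lower and 13 were not DEGs, with a median log2 fold change of 0.20. These counts depended on genes close to the threshold. Socs2 was also called lower under 7 of the 13 alternatives, among them DESeq2 with the settings of the study and the fits without Undiff replicate 1 or Day4 replicate 1, which made 2 genes lower. Pias3 and Ptpn11 were also called higher with library totals, which made 3 genes higher, and Pias3 without Undiff replicate 1. Socs5, of the same family as Socs3, rose from 9.97 and 11.6 CPM to 48.8 and 46.2 CPM, a log2 fold change of 2.14 ± 0.08 (edgeR adjusted p = 1.4e-11). Ptpn6, the gene of the phosphatase SHP-1, fell from 34.8 and 30.1 CPM to 4.77 and 3.98 CPM, a log2 fold change of -2.91 ± 0.10 (edgeR adjusted p = 1.5e-11). Per kb, Socs3 made up 50.8% ± 1.1 of the RNA of the SOCS genes measured in Undiff and 19.5% ± 0.16 in Day4 (SD, n = 2), whereas Socs5 went from 3.57% and 4.02% in Undiff to 20.5% and 19.9% in Day4.

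Of 20 further target genes of LIF and STAT3, 13 were lower in Day4, 4 were higher and 3 were not DEGs. Some of these genes were close to the threshold. With library totals 11 were lower and 5 higher, as Junb and Mcl1 were not called and Cebpb was called higher. Many genes of this list also belong to the ESC network and have other regulators. Sall4, a zinc finger factor of ESCs, fell from 152 and 167 CPM in Undiff to 4.24 and 4.68 CPM in Day4 (log2 fold change -5.15 ± 0.08). Tfcp2l1, a factor that can stand in for LIF in ESC self-renewal, fell from 124 and 138 CPM to 3.93 and 3.53 CPM (-5.14 ± 0.08). Klf5, of the Krüppel-like factors, fell from 49.2 and 55.5 CPM to 1.98 and 2.15 CPM (-4.65 ± 0.10). Cebpd, a factor of the acute phase response, moved the other way, from 0.557 and 0.863 CPM to 19.8 and 18.9 CPM (4.78 ± 0.15). These 4 had edgeR adjusted p-values between 4.4e-15 and 3.6e-12. Bcl6, Tbx3 and Bcl2l1 were also higher in Day4, by log2 fold changes of 1.14 to 1.35.

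Pim2, the third Pim kinase gene and a member of this list, had a log2 fold change of -3.53 ± 0.09, which was more negative than those of Pim1 and Pim3 given above. Per kb, its share of the Pim RNA went from 27.3% and 25.5% in Undiff to 9.15% and 9.12% in Day4, and that of Pim1 from 26.5% and 26.8% to 42.0% and 41.6%. Pim3 made up 46.1% and 47.6% in Undiff and 48.9% and 49.3% in Day4, so that its share was nearly the same in a family whose 3 members were all lower.

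The gp130 chain also passes signals through adaptors to ERK and PI3K. Of 18 genes of this arm, 6 were higher in Day4, 2 were lower and 10 were not DEGs, with a median log2 fold change of 0.04. Gab2, an adaptor, rose from 2.03 and 1.66 CPM to 19.4 and 20.3 CPM (log2 fold change 3.42 ± 0.12). Pik3r1, the regulatory subunit of PI3K, rose from 12.6 and 12.4 CPM to 86.2 and 85.9 CPM (2.78 ± 0.06). Akt1 had a log2 fold change of 2.33 ± 0.05 and Sos2, which activates RAS, one of 2.21 ± 0.06. The 4 had edgeR adjusted p-values between 5.8e-14 and 7.8e-12. Gab1, an adaptor related to Gab2, had a log2 fold change of -1.02 ± 0.05, close to the threshold, and was not called with library totals or the PCR normalizers in place of TMM or without Undiff replicate 2 (-0.96).

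Day4 is a mixture of cell types, and in bulk RNA fewer cells of a type and less RNA per cell cannot be told apart. Markers of other cell types differed between the states together with the genes above. Of 10 genes each, 9 endoderm markers were higher in Day4, with a summed level of 302 to 315 CPM in Undiff and 851 to 852 CPM in Day4. Most of this sum in Undiff was Lamb1, at 269 and 280 CPM, which was not a DEG. In Day4 most of it was Gata4, Gata6 and Lamb1, with means of 257, 276 and 200 CPM. Afp had 0 counts in Undiff and stood at 2.26 and 1.03 CPM in Day4. Of the mesoderm markers 6 were higher and 3 lower, from 237 to 238 CPM up to 563 to 608 CPM. Most of this sum in Undiff was Pecam1, at 141 and 137 CPM, which was lower in Day4, as were Hand1 and Myh6. Of the fibroblast markers 9 were higher and 1 lower, from 79.3 to 87.1 CPM up to 1669 to 1812 CPM, and Fap had 0 counts in both Undiff libraries. Of the neural markers 5 were higher and 3 lower, with 138 to 139 CPM in Undiff and 150 to 166 CPM in Day4. Of the blood cell markers 2 were higher and 3 lower, with 57.0 to 59.6 CPM against 69.8 to 80.3 CPM. The globin gene Hba-x had 1 and 0 counts in Undiff and 1728 and 1937 in Day4. Hbb-bh1, also a globin gene, had 1 and 5 against 1025 and 1281. The 3 lower were Cd68, Spi1 and Laptm5. Ptprc, which marks white blood cells, had 2 and 5 counts in Undiff and 0 in both Day4 libraries, and was not a DEG. The part of these cell types in the levels of Jak2, Cntfr or the other genes was not tested. The share of fragments assigned to no gene also differed with the state, at 12.1% and 13.2% in Undiff and 7.50% and 7.74% in Day4, and its part in the results was not tested.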

How the data were processed

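The authors prepared and sequenced the 4 TruSeq libraries. According to the methods and the submitters' processing notes, adapters were removed with cutadapt, alignment to mm10 used STAR 2.4.2a, and fragments were counted with HTSeq. The deposited values are whole-number counts per gene symbol, not normalized, from the authors' counting of uniquely aligned fragments. The labels name a poly(A) kit and a kit that depletes ribosomal RNA. Lines for fragments with no gene (7.50% to 13.2%) or several genes (1.84% to 1.91%) were left out of all totals.

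TMM scaling was applied to the 19891 genes with any count, and the test was that of edgeR 4.0.16 (glmQLFit with legacy=FALSE, glmQLFTest; R 4.3.3), without a replicate term and with Benjamini-Hochberg adjustment. The DEG thresholds are those of the study. The SE is the absolute log2 fold change divided by the square root of F. The test was checked on simulated data. The smallest two-sided permutation p for 2 against 2 libraries is 0.333, so that only model-based p-values are given. Lengths are union exon lengths of GENCODE vM21 (GRCm38), not the authors' annotation, and promoter sequences are RefSeq's. From each pathway list, at least the called genes with the largest absolute log2 fold change and a mean of at least 1 CPM were named, up to 4, and further genes were named after their values were seen. Some listed genes are counted but not reported here by name. The members and lists were chosen with earlier results of these data known. The floor of 3 counts covers counting error only.

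Replicate numbers are shared between the states, but the replicates were grown separately, and deviations of same-numbered libraries had a Pearson correlation of -0.005 across 13318 genes of 1 comparison, so that the numbers were not taken to pair the libraries. The alternatives were other scalings (library totals, DESeq2 size factors, the PCR normalizers Pum2, Sec24d and Copg1), DESeq2 1.42.0 with the settings of the study or without shrinkage, filterByExpr, thinning to the smallest library, a replicate block, leaving out each library, no minimum fold change, the longest transcript as length and, added after seeing the data, the older quasi-likelihood fit of edgeR.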

Additional observations from a re-analysis of the deposited data

How the results depend on the processing

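The 10 LIF pathway genes kept their direction and their call, DEG or not, in all 130 refits over 13 settings. The adjusted p-value of Il6st fell on either side of 0.05, as given above, while its fold change stayed under the minimum. Without a minimum fold change, 2 of the 10 genes were higher in Day4 (Jak1 with Jak2), and of all genes 14309 passed in place of 8521, 7305 higher and 7004 lower. With the longest transcript as length, the mean ratio of Lifr to Il6st in Day4 was 0.403, that of Cntfr to Il6st in Undiff 0.263, and that of Jak2 to Jak1 0.163 in Undiff and 0.674 in Day4. The fit with a replicate block gave 8515 DEGs and changed no call of the 10 genes. Of 156 counts of called genes in the pathway lists, 129 stayed within 1.5 times, and the others moved by 1 or 2 genes near a log2 fold change of 1. Other scalings moved all genes by -0.04 to 0.07 on the log2 scale. With 1 library left out, its state is represented by a single library whose spread is assumed to be that of the other state. Depth limits Osm, Il11, Ctf2 and Ebi3, for which counts in place of folds are given. The fold changes of Clcf1 and Cebpd also rest on few Undiff counts, 29 and 18 for Clcf1 and 20 and 27 for Cebpd.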
